A study of Mus musculus with 12 samples.

Results

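The genes described are 10 transcription factors used as regulators and markers of blood vessel endothelium: Erg, Fli1, Ets1, Elk3, Sox7, Sox17, Sox18, Klf2, Klf4 and Nr2f2. They were taken by gene symbol from a table of normalized RNA-seq signal that held 22711 genes after duplicate symbols were merged, and 10 of 10 were present. The rule that picked them names genes and uses no measured value, but it was written with earlier results of these data known. The 12 mouse libraries fell into 4 groups of 3, and all animals carried both RIP-rtTA and TetO-VEGF-A. In this system the rat insulin promoter drives a doxycycline-dependent activator in beta cells, and doxycycline (Dox) is given to induce VEGF-A from the transgene there. The groups were whole islets without Dox ("No Dox islets"), whole islets after 1 week of Dox ("Dox islets"), CD11b-sorted macrophages and CD31-sorted endothelial cells. Both sorted populations came from dispersed islets after 1 week of Dox, so no sorted cells without Dox were measured. The labels give no ages. Nor do they state that replicates are separate animals, and the p-values thus cover only the spread between these samples, which may be technical.

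ETS proteins bind a GGAA core, and most endothelial enhancers hold such sites. Erg and Fli1 maintain endothelial identity, Ets1 is linked to angiogenic growth, and Elk3 is a ternary complex factor that represses target genes unless phosphorylated. Sox7, Sox17 and Sox18 form the SOXF subgroup, which acts with Notch and VEGF signals in arterial and lymphatic specification. Klf2 and Klf4 are zinc finger factors induced by laminar flow that keep endothelium quiescent, and both also act in macrophages. Nr2f2 (COUP-TFII) is a nuclear receptor that holds venous identity in endothelium and is also expressed in mesenchymal cells.

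The sorted populations held the markers of their labels, of which Pecam1 and Itgam encode the surface proteins used for sorting. Endothelial markers (Pecam1, Cdh5, Tie1, Tek, Esam, Egfl7, Emcn, Eng, Robo4 and Ecscr) summed to 228000 to 252213 signal in the endothelial libraries and 1901 to 2556 in the macrophage libraries, and 10 of 10 were called higher in the former. Macrophage markers summed to 356697 to 378019 in macrophages and 182 to 619 in endothelial cells, where 1 of 10 sat at the floor of 1 in every library. Acinar markers varied widely between sorted libraries, at 1366 to 409269 in macrophages and 283 to 119219 in endothelial cells. Total signal was 17635776 to 25226447 per library, and sequencing depth is unknown. No Dox replicate 2 and Dox replicate 1 stood apart among islets. Their deviations from the group mean rose with the GC content of a gene's longest protein-coding transcript (Spearman's rho over 15082 genes 0.64 and 0.57). The other 4 islet libraries were at -0.44 to -0.33. Among sorted libraries, replicate 1 was highest in macrophages (0.23) and in endothelial cells (0.29), with the others at -0.20 to -0.06. Vegfa, whose row cannot check induction, since the sequence of the transgene is not known here, was at 3268 to 4514 without Dox and 1579.6 to 2417 with Dox.

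RefSeq promoter windows on GRCm38.p6 were matched for 5 of the 10 genes, with 3 windows for Erg. In the 250 bases before each transcription start, 5 motifs were searched on both strands: AGGAAG and CGGAAG (ETS), ACAATG (SOX), CCACCC (KLF) and CTATTTA (MEF2, the factor family upstream of Klf2). Among all 32851 windows of this length, 29.5, 13.6, 10.7, 28.1 and 2.63% held them, in that order. The 4 windows below are shown because they are the ones that held any match, and capitals mark the matches.
Erg, chr16:95459349-95459598, minus strand: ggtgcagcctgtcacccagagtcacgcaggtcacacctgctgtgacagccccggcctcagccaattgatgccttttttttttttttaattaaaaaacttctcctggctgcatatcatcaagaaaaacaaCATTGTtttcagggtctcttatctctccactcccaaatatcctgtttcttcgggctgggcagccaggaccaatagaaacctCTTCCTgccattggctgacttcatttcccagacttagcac
Elk3, chr10:93311160-93311409, minus strand: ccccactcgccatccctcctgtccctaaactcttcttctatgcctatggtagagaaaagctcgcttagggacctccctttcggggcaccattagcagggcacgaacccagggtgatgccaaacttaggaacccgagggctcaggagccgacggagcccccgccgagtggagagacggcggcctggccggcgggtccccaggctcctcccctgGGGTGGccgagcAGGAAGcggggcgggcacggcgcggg
Klf2, chr8:72318812-72319061, plus strand: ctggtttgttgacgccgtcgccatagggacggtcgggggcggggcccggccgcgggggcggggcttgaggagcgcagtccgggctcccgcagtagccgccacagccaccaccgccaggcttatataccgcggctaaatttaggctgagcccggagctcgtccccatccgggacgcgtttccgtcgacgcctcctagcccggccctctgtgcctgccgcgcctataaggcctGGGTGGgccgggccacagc
Nr2f2, chr7:70366747-70366996, minus strand: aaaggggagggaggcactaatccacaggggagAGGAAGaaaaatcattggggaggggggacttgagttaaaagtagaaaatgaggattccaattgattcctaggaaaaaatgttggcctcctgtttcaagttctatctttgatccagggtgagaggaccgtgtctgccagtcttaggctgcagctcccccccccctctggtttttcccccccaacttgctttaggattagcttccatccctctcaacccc

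Counted back from the start, the Erg window held the SOX motif at -121 to -116 and AGGAAG at -40 to -35, both in reverse orientation. The Elk3 window held CCACCC in reverse at -38 to -33 and AGGAAG in forward orientation at -26 to -21. The Klf2 window held CCACCC in reverse at -19 to -14, and the Nr2f2 window AGGAAG at -218 to -213. No matches overlapped. The Klf4 window and the other 2 Erg windows held none of the 5 motifs. Only these exact letters were searched. Other forms of the same sites, such as ctaaatttag in the Klf2 window as a form of the MEF2 site, were not counted. A window without a match is thus not shown to lack a site. These matches describe the letters in the windows and nothing more.

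All 10 genes passed the filter on low values (a signal of at least 15.5 in 3 or more of the 6 libraries compared) in all 4 comparisons. Sox7, Sox17 and Sox18 each had 1 macrophage library under that level. Differences are given on the scale of log2 of (signal + 1), and a gene was called when limma's adjusted p, over all genes tested, was under 0.05. The comparison of Dox with No Dox islets shows how these factors differ between whole islets with and without Dox. The comparisons of sorted cells show how they differ between endothelial cells, macrophages and whole Dox islets. Other islet cells were not sorted, so the signal of these factors in them was not measured apart. In whole islets all 10 were higher on average with Dox, by 0.79 to 2.10, with a median of 1.40 against 0.11 over all genes. Ets1, Sox7, Nr2f2, Elk3 and Klf2, 5 of the 10, were called higher, and 0 lower, while 4.33% of the 14443 genes tested were called higher and 1.41% lower. The groups did not overlap for 7 of the 10, against 15.7% of all genes in that direction. All 10 were higher with an unadjusted p under 0.05, against 13.4% of all genes tested.

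**Figure D1:**
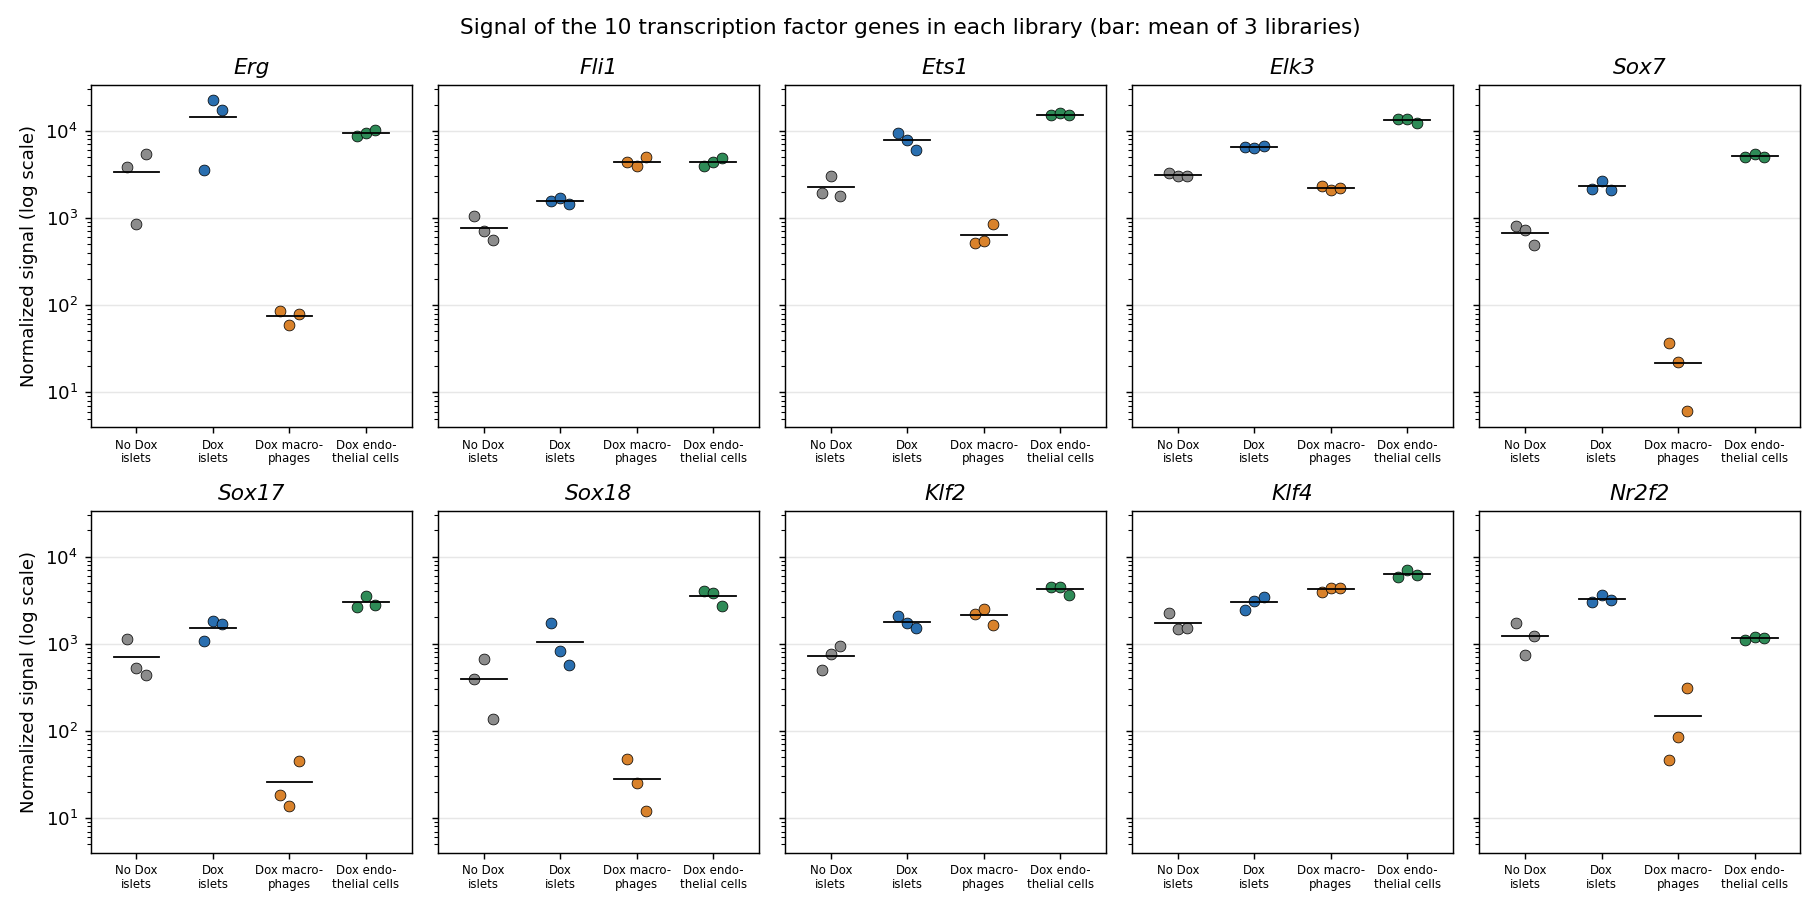
Normalized signal (log scale) of each gene in each of the 12 libraries, by group. Points are libraries and bars are means of 3. Erg, Sox7, Sox17 and Sox18 are under 100 in every macrophage library, Fli1 overlaps between macrophages and endothelial cells, and Nr2f2 is higher in Dox islets than in sorted endothelial cells.

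Between the sorted populations, 9 of 10 were called higher in endothelial cells and 0 lower (31.5 and 27.7% of 13726 genes), and Fli1 was not called. The median difference was 4.01 against 0.10 for all genes. Against Dox islets, 8 of 10 were called higher in endothelial cells (11.5% of 14218 genes), Nr2f2 was called lower (21.6%), and Erg was not called, with a median of 1.06 against 0.0038. In macrophages against Dox islets, 7 were called lower (31.4% of 14479 genes) and Fli1 higher (21.3%), with Klf2 and Klf4 not called and a median of -4.27 against -0.20. The 3 comparisons with Dox islets share those 3 libraries, so their results are not independent.

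**Figure D2:**
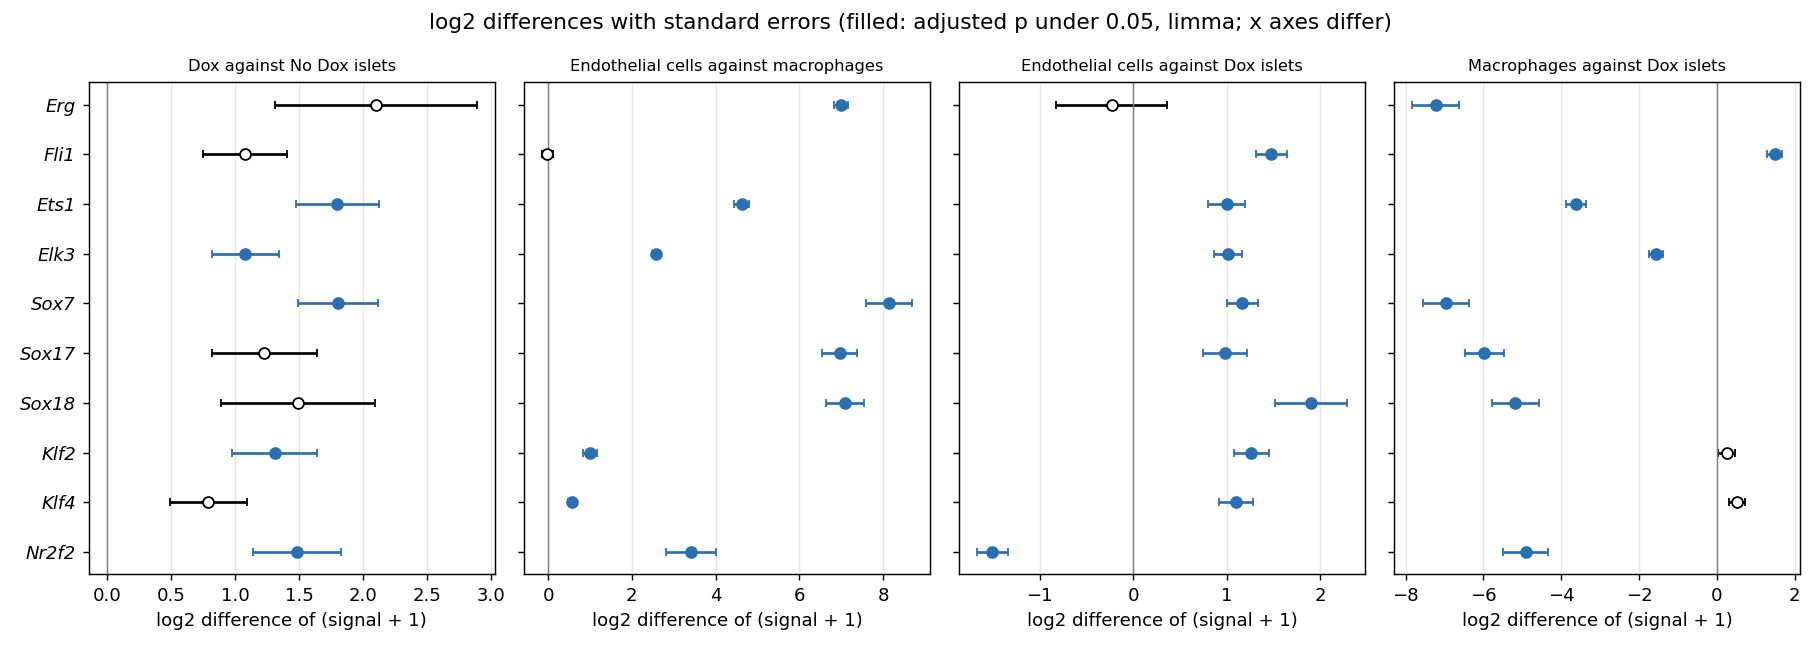
Differences (log2 of signal + 1) with standard errors in 4 comparisons, with filled points for an adjusted p under 0.05 by limma and a separate x axis for each comparison. Of 10 genes, 5 are filled in islets, 9 between sorted cells, 9 between endothelial cells and Dox islets and 8 between macrophages and Dox islets.

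Erg (ENSMUSG00000040732, chr16:95580776-95808200 on mm9, minus strand) had signals of 3859.8, 841 and 5423 in No Dox islets and 3563, 22269 and 17525 in Dox islets. The macrophage libraries held 85.4, 59.1 and 78.2 and the endothelial libraries 8803, 9516 and 10294. The islet groups overlapped: within each, 1 library was far below the others, and these were the 2 libraries with the high GC trend. Dox islets averaged 14452 ± 9724 (SD, n = 3) and No Dox islets 3375 ± 2329, a difference of 2.10 (SE 0.79, adjusted p = 0.157) that was not called. Without those 2 libraries the difference was 2.11 and was called (adjusted p = 0.0397). It was also called without Dox replicate 1 alone and with the replicate number as a block. With each library's GC trend removed it was not called. Over all alternatives the adjusted p ran from 0.0243 to 0.523. Endothelial cells stood 128-fold above macrophages (7.00 (SE 0.17, adjusted p = 4.57e-08)). They did not differ detectably from Dox islets (-0.23 (SE 0.59, adjusted p = 0.789)), and the Dox libraries lay on both sides of them. Without Dox replicate 1, Erg was called lower in endothelial cells than in Dox islets (-1.05, adjusted p = 0.000407), and without Dox replicate 2 or 3 the difference changed sign (0.27 and 0.10). The part of the GC trend in these values was not tested beyond these alternatives.

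Fli1 (ENSMUSG00000016087, chr9:32229793-32348974, minus strand) shares much of Erg's DNA-binding specificity but is also a blood cell factor. Its signals were 1063, 703 and 552 in No Dox islets and 1569, 1692 and 1461 in Dox islets, where the groups did not overlap. In macrophages they were 4337, 3927 and 5039 and in endothelial cells 3925, 4335 and 4908, 2 overlapping groups. The islet difference of 1.08 (SE 0.33, adjusted p = 0.0861) was not called, except with one fit of all groups (adjusted p = 0.0115). Macrophages and endothelial cells differed by -0.013 (SE 0.13, adjusted p = 0.939), and the sign changed when endothelial replicate 1 (0.065) or macrophage replicate 3 (0.083) was left out. Both sorted populations were above Dox islets, endothelial cells by 1.48 (SE 0.16, adjusted p = 0.000224) and macrophages by 1.49 (SE 0.19, adjusted p = 0.000155). In macrophages Erg was at 0.778% and Fli1 at 101% of the endothelial mean.

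Ets1 (ENSMUSG00000032035, chr9:32443806-32565405, plus strand) lies next to Fli1 on the chromosome. Its signals were 1944, 3061 and 1784 in No Dox islets and 9463, 7759.6 and 6098 in Dox islets, so every Dox library was above every library without Dox. Macrophages held 521, 546 and 846, and endothelial cells 15075, 15803 and 15081, the highest signals of the 4 groups. The rise with Dox was 3.48-fold (1.80 (SE 0.32, adjusted p = 0.0169)). The call was lost in 5 of 15 alternatives, with adjusted p from 0.000979 to 0.104. Endothelial cells were 24.6-fold above macrophages (4.62 (SE 0.18, adjusted p = 2.86e-07)) and 2.00-fold above Dox islets (1.00 (SE 0.20, adjusted p = 0.00464)). Macrophages were -3.62 (SE 0.26, adjusted p = 5.84e-06) from Dox islets.

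Elk3 (ENSMUSG00000008398, chr10:92710159-92773880, minus strand) varied least within islet groups among the 10, at 3259, 3000.4 and 2997 in No Dox islets and 6550.1, 6388 and 6644 in Dox islets. Macrophages held 2317, 2072 and 2231 and endothelial cells 13497, 13754 and 12351, and no 2 of the 4 groups overlapped. The rise with Dox was 2.12-fold (1.08 (SE 0.26, adjusted p = 0.0432)), and its call was lost in 11 of 15 alternatives (adjusted p 0.00102 to 0.197). Endothelial cells were 2.58 (SE 0.091, adjusted p = 1.77e-07) above macrophages and 1.01 (SE 0.15, adjusted p = 0.00106) above Dox islets. The exons of Elk3 share 316 bases, 6.95% of their length, with Cdk17 on the opposite strand. The use of strand in counting is not stated, and reads from those bases cannot be assigned to either gene.

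Sox7 (ENSMUSG00000063060, chr14:64562511-64569569, plus strand) had the largest contrast between the sorted populations. Signals were 804, 722 and 489 in No Dox islets, 2157, 2688 and 2077 in Dox islets, 37.1, 22.0 and 6.05 in macrophages and 4966, 5432 and 5065 in endothelial cells. No 2 groups overlapped, and 1 macrophage library lay under the filter level of 15.5. Sox7 rose 3.48-fold with Dox (1.80 (SE 0.31, adjusted p = 0.0153)), a call lost in 4 of 15 alternatives (adjusted p 0.00481 to 0.112). Endothelial cells were at 8.13 (SE 0.55, adjusted p = 5.21e-06) relative to macrophages and 1.17 (SE 0.17, adjusted p = 0.000825) relative to Dox islets, and macrophages at -6.97 (SE 0.59, adjusted p = 1.57e-05) relative to Dox islets. The call of endothelial cells against Dox islets was lost with one fit of all groups (adjusted p = 0.0877).

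Sox17 (ENSMUSG00000025902, chr1:4481009-4486494, minus strand), linked to arterial fate, had signals of 1128, 521 and 437 in No Dox islets and 1087, 1808 and 1687 in Dox islets. The groups overlapped through No Dox replicate 1 and Dox replicate 1, and the difference of 1.23 (SE 0.41, adjusted p = 0.115) was not called. Macrophages held 18.5, 13.8 and 45.3 and endothelial cells 2641, 3546 and 2745. Endothelial cells were 6.96 (SE 0.42, adjusted p = 2.62e-06) above macrophages. Against Dox islets the difference of 0.98 (SE 0.24, adjusted p = 0.0124) was called, but the call was lost without the filter (adjusted p = 0.0593), with one fit of all groups (0.127) and without endothelial replicate 2 (0.0621).

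Sox18 (ENSMUSG00000046470, chr2:181404541-181406345, minus strand), which acts in early lymphatic and vascular specification, was at 397, 659 and 138 in No Dox islets and 1739, 815 and 566 in Dox islets. Here the 2 high-GC libraries were the highest of their groups, the reverse of Erg. The groups overlapped and the difference of 1.49 (SE 0.60, adjusted p = 0.190) was not called. Macrophages held 47.4, 25.4 and 12.1 and endothelial cells 4067, 3795 and 2734, a difference of 7.09 (SE 0.45, adjusted p = 3.68e-06). Endothelial cells were 1.90 (SE 0.38, adjusted p = 0.00516) above Dox islets, the largest such difference among the 10, and the call was lost without the filter (adjusted p = 0.0564). With each library's GC trend removed, Sox18 was called higher in Dox islets (adjusted p = 0.0333).

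Klf2 (ENSMUSG00000055148, chr8:74842932-74845555, plus strand) was at 499, 756 and 932 in No Dox islets and 2077, 1709 and 1510.3 in Dox islets, with no overlap. Macrophages held 2215, 2479.9 and 1647, overlapping the Dox islets, and endothelial cells 4502, 4501 and 3655, above every other library. The rise with Dox was 2.48-fold (1.31 (SE 0.33, adjusted p = 0.0492)), and its call was lost in 12 of 15 alternatives (adjusted p 0.00595 to 0.198). Endothelial cells were 2.01-fold above macrophages (1.01 (SE 0.17, adjusted p = 0.00106)) and 2.40-fold above Dox islets (1.26 (SE 0.19, adjusted p = 0.000958)). Macrophages and Dox islets were not distinguished (0.25 (SE 0.23, adjusted p = 0.382)).

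Klf4 (ENSMUSG00000003032, chr4:55540013-55545347, minus strand) had the smallest islet difference, with 2223, 1479 and 1499 in No Dox islets and 2413, 3094 and 3421 in Dox islets. The groups did not overlap, but the difference of 0.79 (SE 0.30, adjusted p = 0.165) was not called, except with one fit of all groups (adjusted p = 0.0287). Macrophages held 3950.0, 4365 and 4407 and endothelial cells 5856, 6918 and 6182. The order endothelial cells, macrophages, Dox islets and No Dox islets held with no overlap between neighbours. Endothelial cells were called above macrophages (0.57 (SE 0.10, adjusted p = 0.00139)) and above Dox islets (1.10 (SE 0.18, adjusted p = 0.00193)). Macrophages missed the threshold against Dox islets (0.52 (SE 0.20, adjusted p = 0.0505)), and were called higher there under quantile normalization (0.0168), median ratio rescaling (0.0355) and one fit of all groups (0.0493).

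Klf2 and Klf4 can respond to tissue dissociation as immediate early genes do. Of 13 immediate early genes, 13 were called lower in endothelial cells than in macrophages (27.7% of all genes tested were), with a median of -1.98. Among them were Egr2 at -4.74 (adjusted p = 1.46e-07) and Atf3 at -3.56 (adjusted p = 1.6e-07). Klf2 and Klf4 were called higher in endothelial cells (31.5%). In macrophages against Dox islets, 13 of the 13 were called higher (median 2.86, 21.3% of all genes tested), while Klf2 and Klf4 were not called. In endothelial cells against Dox islets 6 of the 13 were called higher (11.5%) and 1, Egr2 (-2.14 (adjusted p = 0.000240)), lower (21.6%). These 7 calls became 12 without Dox replicate 1, 4 without Dox replicate 3 and 3 with no filter. None of the 13 was called between the islet groups, where Egr1 was at -0.38 (adjusted p = 0.630). The part of dissociation and sorting in the Klf values was not tested.

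Nr2f2 (ENSMUSG00000030551, chr7:77496832-77511621, minus strand) was the only one of the 10 called lower in endothelial cells than in Dox islets. Signals were 1716, 752 and 1241 in No Dox islets, 3026, 3668 and 3173 in Dox islets, 46.6, 85.3 and 311 in macrophages and 1095, 1205 and 1160.2 in endothelial cells. Dox islets were above all other libraries, and endothelial cells lay within the range of No Dox islets. The rise with Dox was 2.80-fold (1.49 (SE 0.35, adjusted p = 0.0381)), and its call was lost in 10 of 15 alternatives (adjusted p 0.00779 to 0.182). Endothelial cells were 10.6-fold above macrophages (3.41 (SE 0.60, adjusted p = 0.00146)) and 2.84-fold below Dox islets (-1.51 (SE 0.16, adjusted p = 0.000183)). The direction and call against Dox islets held in 14 of 14 alternatives. Markers of several other cell types were also called lower in endothelial cells than in Dox islets, where 21.6% of all genes were. These were 9 of 9 beta cell, 6 of 7 other endocrine, 7 of 7 ductal and 10 of 10 macrophage markers. Other lists were mixed. Of 6 lymphatic endothelial markers 3 were called lower and 1 higher, and of 9 acinar markers 1 lower and 0 higher. Of 5 platelet markers 2 were called lower and 1 higher, and of 6 neutrophil and dendritic cell markers 3 lower and 2 higher. Among mesenchymal cells, 9 of 9 markers of pericytes and smooth muscle were called lower. Their summed signals were 17576 to 64556 in endothelial cells and 209123 to 424462 in Dox islets. Also called lower were 7 of 7 fibroblast markers, at 1264 to 3860 and 48883 to 114303. None of these 16 mesenchymal markers was at the floor in all libraries of either group. Against macrophages, 5 of 9 markers of pericytes and smooth muscle were called higher in endothelial cells and 0 lower (31.5 and 27.7% of all genes). Of 7 fibroblast markers, 0 were called higher there and 2 lower. The part of any of these cell types in the Nr2f2 differences was not tested.

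The islet calls changed when libraries were left out. The count of 5 became 0 without Dox replicate 2 or Dox replicate 3, 2 without No Dox replicate 1 or 2, and 3 without Dox replicate 1 or No Dox replicate 3. With both high-GC libraries left out it was 2, namely Erg and Ets1 (adjusted p = 0.0411). Marker lists of several cell types moved with Dox: summed endothelial markers went from 30939 to 35730 to 81023 to 101470 (5 of 10 called higher), mural markers from 50352 to 124353 to 209123 to 424462 (4 of 9), macrophage markers from 4219 to 7111 to 14375 to 21940 (3 of 10), and beta cell markers from 388350 to 682545 to 163431 to 224597 (5 of 9 called lower). Their part in the rises of the factors was not tested. In such bulk samples more cells of a type and more RNA per cell cannot be told apart.

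To set each factor against the endothelial RNA in its library, its signal was divided by the geometric mean of the 10 endothelial markers. That mean was 1948, 2255 and 1458 in No Dox islets and 6990.0, 5398 and 4733 in Dox islets. Of the markers, 8 are also described as ERG or FLI1 targets, so for Erg and Fli1 the ratio is largely to genes described as their own targets. On this ratio the islet groups overlapped for all 10 factors, whereas 64.5% of 14433 genes had groups that did not overlap, 0.866% in the higher direction. The mean log2 ratio was lower with Dox for 7 factors and higher for Erg, Ets1 and Sox7, of which Ets1 and Sox7 turned lower with Cdh5 alone as the marker (-0.0524 and -0.0493). Two-sided exact permutation tests gave p from 0.2 to 0.9 (adjusted over the 10 factors 0.667 to 0.900), and 3 libraries against 3 cannot go below 0.1. For Ets1 the ratios were 0.998, 1.36 and 1.22 without Dox and 1.35, 1.44 and 1.29 with Dox, and for Elk3 they were 1.67, 1.33 and 2.06 and 0.937, 1.18 and 1.40. The overlap depended on the markers and libraries: with Cdh5 alone, Fli1, Elk3, Klf2 and Klf4 had lower ratios in every Dox library, and with Pecam1 alone Elk3 and Klf4 did. Without No Dox replicate 2 the groups of 5 factors no longer overlapped, with Ets1 higher with Dox and Fli1, Elk3, Klf4 and Nr2f2 lower. Without both high-GC libraries those of 6 did not overlap, the same factors in the same directions and Sox7, which was higher. No share of all genes is given for these alternatives, so these counts cannot be set against it.

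**Figure D3:**
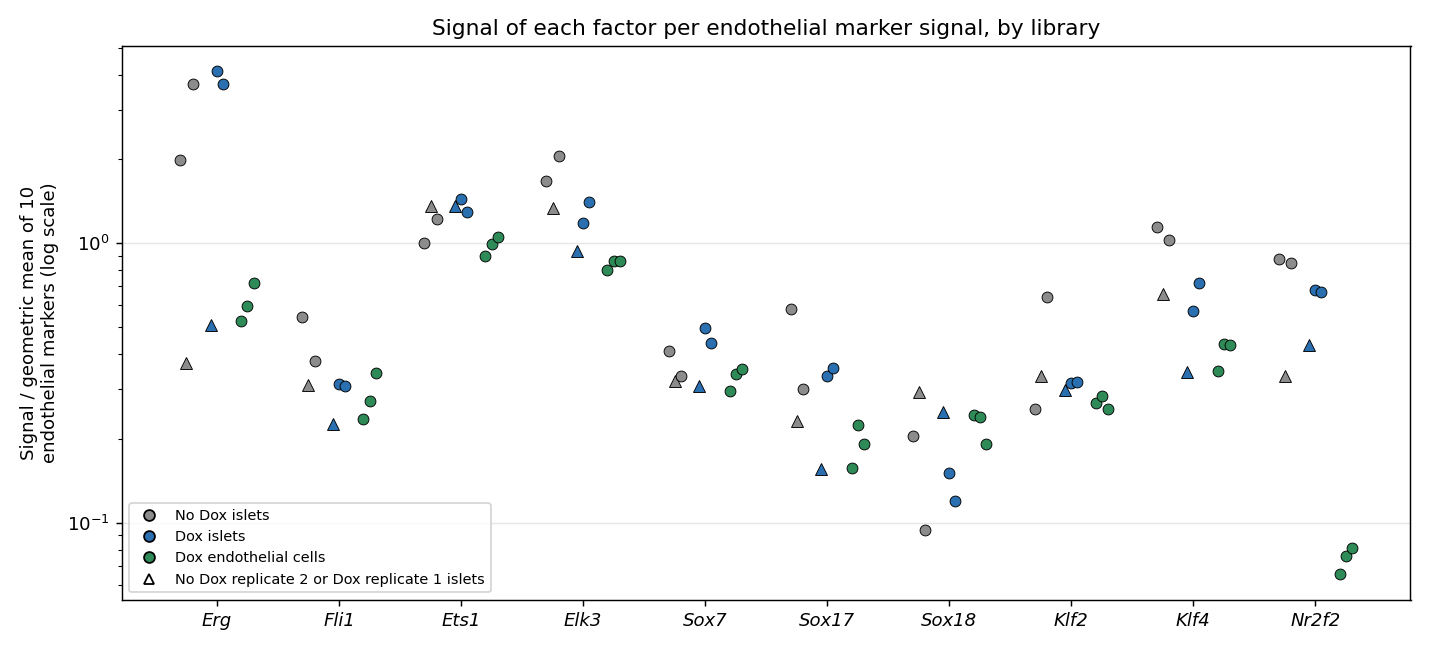
Signal of each factor divided by the geometric mean of 10 endothelial markers (log scale), 1 point per library of islets and of sorted endothelial cells. Triangles are No Dox replicate 2 and Dox replicate 1. Grey and blue points overlap for every factor, and Nr2f2 is the factor whose endothelial points lie farthest below both islet groups.

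Dox islets were above sorted endothelial cells on this ratio, with no overlap, for Ets1, Elk3, Klf2 and Nr2f2, 4 of the 10 (83.4% of all genes were). For Nr2f2 the ratios were 0.433, 0.680 and 0.670 in Dox islets and 0.0652, 0.0757 and 0.0810 in endothelial cells, 7.90-fold apart. Those of Klf2 were 0.297, 0.317 and 0.319 and 0.268, 0.283 and 0.255, 1.16-fold apart. Fli1, Sox7, Sox17, Sox18, Klf4 and Erg overlapped, with Erg at 0.510, 4.13 and 3.70 in Dox islets and 0.525, 0.598 and 0.719 in endothelial cells.

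As a share of the endothelial cell mean, the 10 endothelial markers in Dox islets ran from 28.4 to 46.6% (median 37.7%). Fli1 (35.9%), Sox7 (44.8%), Sox18 (29.5%) and Klf2 (41.8%) lay inside that range. Klf4 (47.1%), Elk3 (49.4%), Ets1 (50.7%) and Sox17 (51.3%) lay just above it. Erg (152%) and Nr2f2 (285%) were above 100%, and Nr2f2 reached 107% without Dox. The Erg share is a mean of Dox libraries at 3563, 22269 and 17525, on both sides of the endothelial mean of 9538. In macrophages the markers ran from 0.363 to 2.79%. Sox7 (0.421%), Erg (0.778%), Sox18 (0.802%) and Sox17 (0.869%) fell in that range. Ets1 (4.16%), Nr2f2 (12.8%), Elk3 (16.7%), Klf2 (50.1%), Klf4 (67.1%) and Fli1 (101%) were above it.

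**Figure D4:**
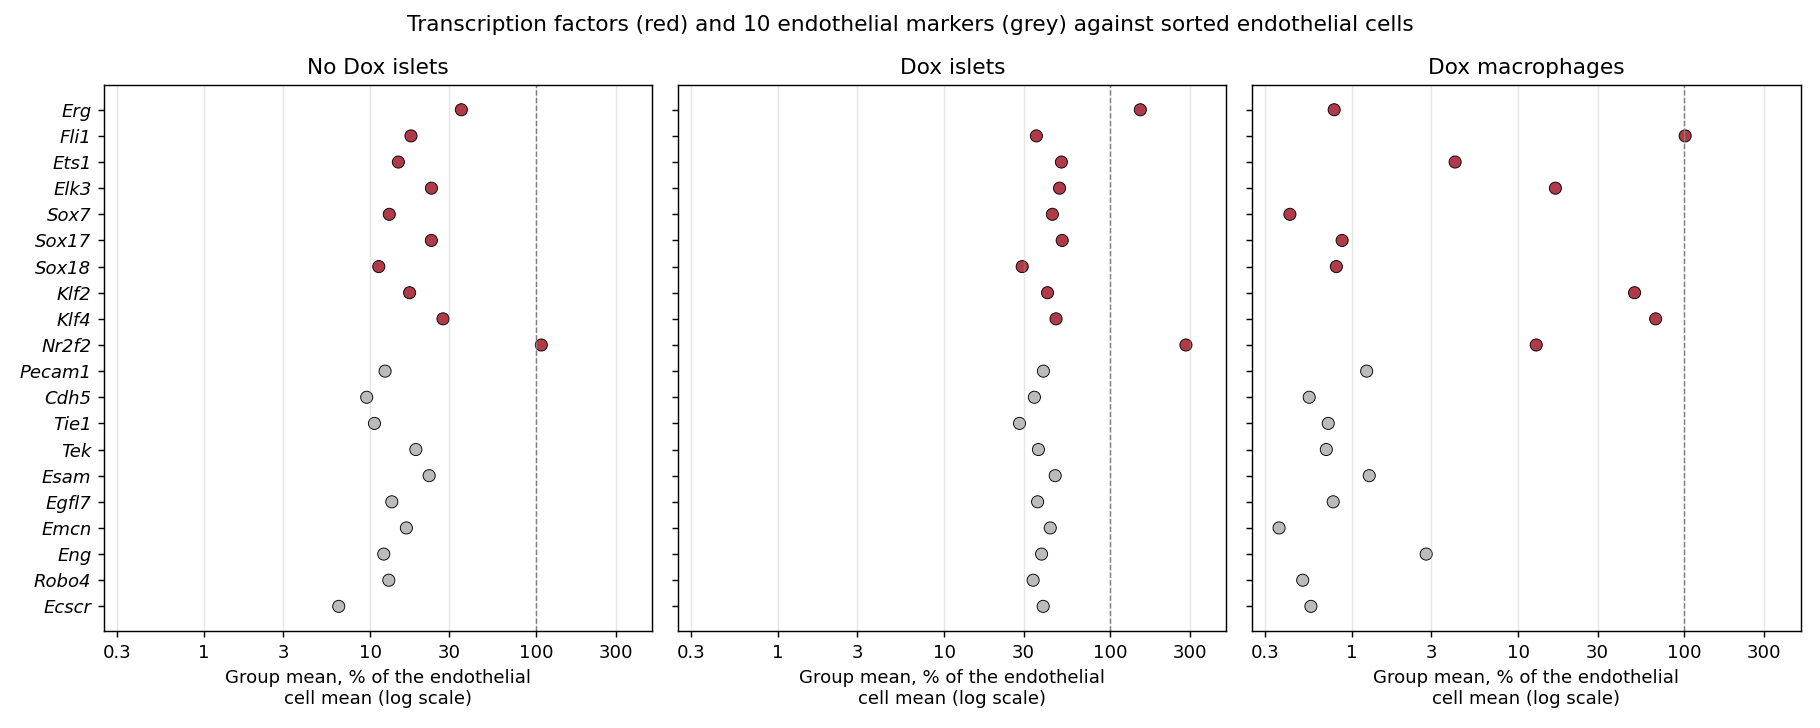
Mean of each group as a percentage of the endothelial cell mean (log scale), for the 10 factors in red and 10 endothelial markers in grey, with 100% dashed. In Dox islets 8 factors lie between 29.5 and 51.3%, with Erg and Nr2f2 beyond 100%. For Erg, Dox replicate 1 was below every endothelial library. In macrophages Fli1 is at 101%.

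Levels of different genes were compared as signal per kilobase of exon, as a description. In endothelial cells Elk3 was highest (2901, range 2714 to 3023), followed by Erg (2739.9), Ets1 (2385), Klf2 (2284), Sox18 (2180.1), Klf4 (2065), Sox7 (1563), Fli1 (1412), Sox17 (944) and Nr2f2 (237). Neighbours in this order overlapped except at Erg and Ets1, Klf4 and Sox7, Fli1 and Sox17, and Sox17 and Nr2f2. In macrophages Fli1 led (1427), ahead of Klf4 (1386) and Klf2 (1144), whose ranges overlapped in turn. Elk3 (485) and Ets1 (99.3) followed, each apart from its neighbours, and the other 5 were at 30.4 or less. In Dox islets Erg (4152) came first, but its range of 1023 to 6397 overlapped those of Elk3 (1435) and Ets1 (1210.5).

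Some ratios between family members showed the same libraries apart, but not all did. Klf2 per Klf4, per kilobase, was 0.372, 0.846 and 1.03 in No Dox islets, where replicate 2 lay between the others. In Dox islets that ratio was 1.43, 0.915 and 0.731. Erg per Fli1, per kilobase, was 2.00, 1.96 and 1.87 in endothelial cells and 0.0176, 0.0134 and 0.0139 in macrophages. In islets it was 3.24, 1.07 and 8.77 without Dox and 2.03, 11.7 and 10.7 with Dox, so No Dox replicate 2 and Dox replicate 1 were lowest. Sox17 per Sox18 was 1.46, 0.406 and 1.63 in No Dox islets, 0.321, 1.14 and 1.53 in Dox islets and 0.334, 0.480 and 0.516 in endothelial cells. The same 2 islet libraries were the only ones of the 6 under 1. The GC content of the longest protein-coding transcript is 50.1% for Sox17, 60.9% for Sox18, 50.9% for Erg and 44.2% for Fli1. Its part in these ratios was not tested.

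Across the 12 libraries, the log2 signals of the factors were compared by Pearson's r as a description, with points that share groups and preparation. Sox7 and Sox18 were most alike (r = 0.969), and Erg, Ets1, Sox7, Sox17 and Sox18 were joined by r from 0.832 to that value. Fli1 was most like Klf4 (0.933) and Klf2 (0.800), both also high in macrophages. Fli1 and Nr2f2 were least alike (-0.472), and Erg and Fli1 stood at -0.321. Among 15105 genes, the 3 nearest in pattern to Erg were Antxr1 (r = 0.990), Prss23 (r = 0.990) and Dsel (r = 0.990). Those of Fli1 were Lgals9 (r = 0.983), Sertad2 (r = 0.980) and Uvrag (r = 0.980), and those of Ets1 Vwa1 (r = 0.994), Cd34 (r = 0.994) and Bcl6b (r = 0.991), of which Cd34 encodes a surface marker of endothelium and blood progenitors. Elk3 was nearest to Cdyl2 (r = 0.995), Tal1 (r = 0.993) and Ppm1f (r = 0.990), Tal1 being a factor of blood and endothelial development.

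Sox7 was nearest to Slco2a1 (r = 0.996), Lrrc3b (r = 0.996) and Clec14a (r = 0.995), of which Slco2a1 encodes a prostaglandin transporter and Clec14a an endothelial surface protein. The nearest to Sox17 were Osmr (r = 0.997), Ptprg (r = 0.997) and Erc1 (r = 0.996), and to Sox18 Rasip1 (r = 0.994), Smtn (r = 0.992) and Sox13 (r = 0.991), Rasip1 encoding a regulator of vascular lumen formation. For Klf2 they were Enc1 (r = 0.991), Cenpt (r = 0.975) and Fhod1 (r = 0.968), and for Klf4 Spag9 (r = 0.985), Akap13 (r = 0.975) and Cdk11b (r = 0.972). Nr2f2 was nearest to Prkg1 (r = 0.984), Fbn1 (r = 0.980) and Thbs2 (r = 0.980), of which Fbn1 encodes the matrix protein fibrillin and Thbs2 a matricellular thrombospondin.

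Some other members of the same families were also called in islets. The shares of all genes called, given above for each comparison, apply to these lists and to those below. Of 15 other ETS genes tested in islets, Ets2 (1.38 (adjusted p = 0.0274)) and Elf4 (1.28 (adjusted p = 0.0377)) were called higher and none lower, with a median of 0.33. Elk4, a ternary complex factor like Elk3, was at 1.14 (adjusted p = 0.0814). Of 8 other SOX genes, Sox11 was called higher (3.19 (adjusted p = 0.0424)), from 19.6 ± 19.5 to 142 ± 39.4 signal. Of 12 other KLF genes, Klf6 was called (1.42 (adjusted p = 0.0369)), and of 5 other NR2 receptors none was, with Nr2c1 at 0.17 (adjusted p = 0.829). All of these islet calls (4 in total) were lost when both high-GC libraries, Dox replicate 2, Dox replicate 3 or No Dox replicate 1 were left out. Without Dox replicate 1 only that of Klf6 was kept, without No Dox replicate 2 those of the ETS genes, and without No Dox replicate 3 those of Sox11 and Ets2.

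Between the sorted populations the other ETS genes split, with 6 of 15 called higher in endothelial cells and 6 lower (31.5 and 27.7% of all genes). Only 20 of the 21 listed ETS genes were found by symbol, and no value is given here for Spi1, which was listed. The split thus covers only the 15 genes tested. Ehf (-5.40 (adjusted p = 9.28e-06)), Spib (-4.86 (adjusted p = 0.000607)) and Etv3 (-2.43 (adjusted p = 1.24e-06)) were higher in macrophages, and Etv4 (2.11 (adjusted p = 0.0479)) in endothelial cells, at a low 28.7 ± 3.81 signal. Of 6 other SOX genes, 4 were called higher in endothelial cells: Sox11 (6.72 (adjusted p = 4.79e-06)), Sox13 (5.70 (adjusted p = 1.36e-06)), Sox4 (3.63 (adjusted p = 8.69e-05)) and Sox5 (3.12 (adjusted p = 0.00393)). Of 11 other KLF genes, 5 were higher there, including Klf12 (5.14 (adjusted p = 0.000143)), Klf9 (1.98 (adjusted p = 8.85e-06)) and Klf7 (1.75 (adjusted p = 1.99e-05)), and 1 lower, Klf6 (-2.04 (adjusted p = 4.41e-06)). Of 5 other NR2 genes, 4 were higher, including Nr2f1 (3.45 (adjusted p = 0.000733)), the paralog of Nr2f2, and Nr2f6 (2.74 (adjusted p = 0.0283)), a count that was 2 without endothelial replicate 1 or 2. Nr2f1 went the way of Nr2f2 against Dox islets, at -3.07 (adjusted p = 0.000315) with 69.2 ± 27.6 signal in endothelial cells and 559 ± 71.4 in islets. Sox9 (-4.29 (adjusted p = 0.000538)) and Sox10 (-4.79 (adjusted p = 0.000149)), factors of duct and Schwann cells, were lower in endothelial cells.

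Of 27 other transcription factors of endothelium, 7 were called higher in Dox islets and none lower (median 1.41), a count that was 4 without both high-GC libraries, 0 without Dox replicate 2 or 3, 3 without No Dox replicate 1 and 11 with the GC trend removed. The largest called rises were those of the forkhead factor Foxc2 (1.99 (adjusted p = 0.0447)), the Notch effector Hey1 (1.96 (adjusted p = 0.0303)), Tal1 (1.82 (adjusted p = 0.0196)) and Bcl6b (1.79 (adjusted p = 0.0239)). Epas1, which encodes a hypoxia-inducible factor, had the highest mean of those not called (1.23 (adjusted p = 0.0809)). Between sorted populations 21 of 27 were higher in endothelial cells and 3 lower. Meox1 (8.28 (adjusted p = 0.000121)), Gata2 (7.33 (adjusted p = 4.72e-07)), Hey1 (6.64 (adjusted p = 3.16e-06)) and Bcl6b (6.60 (adjusted p = 4.72e-07)) led, and Lmo2, also a blood cell factor, was not called (0.31 (adjusted p = 0.0915)). Against Dox islets 8 of 27 were called higher in endothelial cells and 6 lower, where 11.5 and 21.6% of all genes tested were. Like Nr2f2, Gata6 (-4.25 (adjusted p = 2.74e-05)), Heyl (-4.11 (adjusted p = 8.72e-05)), Meox2 (-2.51 (adjusted p = 0.000964)) and Foxc1 (-2.16 (adjusted p = 0.000791)) were lower in the sorted endothelial cells.

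Genes known as targets of these factors were followed in lists, which overlap. Of 15 ERG and FLI1 targets, 8 are also among the endothelial markers above. In islets 5 were called higher and none lower (median 1.41): Cldn5 and Cdh5, genes of endothelial junctions, were at 3.80 (adjusted p = 0.0231) and 1.85 (adjusted p = 0.0124), Pecam1 at 1.69 (adjusted p = 0.0222) and the Wnt and norrin receptor gene Fzd4 at 1.49 (adjusted p = 0.0212). Cldn5 was low, from 4.52 ± 1.58 to 78.7 ± 31.7 signal. Eng was not called (1.73 (adjusted p = 0.0825)). The count of 5 became 3, 0 and 1 without Dox replicate 1, 2 and 3, 0 with no filter, 11 with the GC trend removed and 8 when No Dox replicate 2 was left out. Between the sorted populations, where Fli1 overlapped, 14 of the 15 were called higher in endothelial cells, led by Robo4 (7.66 (adjusted p = 5.51e-08)), Cdh5 (7.53 (adjusted p = 5.65e-08)), Tek (7.28 (adjusted p = 7.81e-07)) and Tie1 (7.18 (adjusted p = 2.72e-07)). The deacetylase gene Hdac6 was not called (-0.46 (adjusted p = 0.236)). Against Dox islets 13 of 15 were higher in endothelial cells and 1 lower, with Icam2 at 2.12 (adjusted p = 0.0325) and Tie1 at 1.88 (adjusted p = 0.000645). These 14 calls became 8 without Dox replicate 3 and 7 with no filter.

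Of 9 SOXF targets tested in islets, 7 were called higher with Dox (median 1.58), and 4 without both high-GC libraries. The count was 0 without Dox replicate 2, 1 without Dox replicate 3 and 3 or 4 without any 1 of the other libraries. Beside Cldn5 and Cdh5 these included the adhesion gene Vcam1 (2.13 (adjusted p = 0.0415)) and Notch4 (1.80 (adjusted p = 0.0228)), while Prox1, a lymphatic regulator also expressed in endocrine cells, was at -0.94 (adjusted p = 0.125). Between sorted populations 8 of 9 were higher in endothelial cells, among them the VEGF receptor genes Kdr (7.48 (adjusted p = 2.36e-08)) and Flt1 (7.36 (adjusted p = 2.42e-08)) and the Notch ligand gene Dll4 (7.05 (adjusted p = 1.55e-07)). Vcam1 (-3.17 (adjusted p = 0.000279)) and Prox1 (-1.84 (adjusted p = 0.000497)) were lower in endothelial cells than in Dox islets, and the other 7 were higher, 9 calls that became 5 with no filter. Of 11 KLF2 and KLF4 targets, 3 rose in islets: Cdh5, Slco2a1 (1.47 (adjusted p = 0.0263)) and the chemokine receptor gene Cxcr7 (1.38 (adjusted p = 0.0300)). Thbd, the thrombomodulin gene, was not called (0.86 (adjusted p = 0.239)). The count of 3 was 0 without Dox replicate 2 or with no filter, 1 without Dox replicate 1, Dox replicate 3 or No Dox replicate 1, 2 without both high-GC libraries and 5 with the GC trend removed. In endothelial cells 10 of 11 were above macrophages, with Slco2a1 at 8.10 (adjusted p = 2.19e-06) and the nitric oxide synthase gene Nos3 at 7.40 (adjusted p = 6.65e-05), and 5 were above Dox islets, Nos3 by 1.69 (adjusted p = 0.00161). Those 5 calls became 8 with quantile normalization and 3 with one fit of all groups.

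Genes of venous and lymphatic endothelium, the compartments tied to Nr2f2, and arterial genes, tied to SOXF and Notch, both included genes that rose with Dox. Of 7 venous or lymphatic genes 3 were called, the apelin receptor gene Aplnr (2.72 (adjusted p = 0.0124)), Nrp2 (1.67 (adjusted p = 0.0144)) and Flt4 (1.50 (adjusted p = 0.0171)), with a median of 1.36. Of 12 arterial genes 5 were called, including Cxcr4 (2.18 (adjusted p = 0.0228)), Hey1, Notch4 and Efnb2 (1.58 (adjusted p = 0.0212)), with a median of 1.50. Without both high-GC libraries the counts were 3 and 1, without Dox replicate 2 both were 0, and without Dox replicate 3 they were 1 and 0. The arterial count was 3 without Dox replicate 1 or No Dox replicate 1. Against Dox islets, where Nr2f2 was lower in endothelial cells, the venous receptor genes Ephb4 (1.50 (adjusted p = 0.00576)) and Aplnr (1.50 (adjusted p = 0.00709)) were higher there, and Lyve1 (-2.14 (adjusted p = 0.00181)), expressed by lymphatic endothelium and some macrophages, was lower. Of the 12 arterial genes 6 were higher there, including Dll4 and Notch1 (1.68 (adjusted p = 0.0242)), and Foxc1 was lower, 7 calls that became 2 with no filter, 3 without endothelial replicate 1 or Dox replicate 3 and 4 without endothelial replicate 2 or 3. Against macrophages 6 of 7 venous or lymphatic genes were higher, led by Flt4 (7.38 (adjusted p = 3.11e-08)), Aplnr (7.34 (adjusted p = 9.82e-08)) and Ephb4 (6.72 (adjusted p = 5.19e-05)), and 11 of 12 arterial genes.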

How the data were processed

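RNA from islets or sorted cells was amplified with a NuGEN Ovation kit and sequenced on a HiSeq2500, per the labels' protocols. The deposited values are a linear signal, normalized by the authors, with a floor of 1. The submitters' processing notes name TopHat2 2.0 and mm9 but no roles. Not given in the sources used here are the normalization method, the counting program, its use of strand and the annotation. Values near the floor are compressed by the added pseudocount. The table had 22793 entries. Symbols stored as dates (25) were restored by Ensembl ID, and the entry with the highest mean was kept for 76 symbols with several, which left 22711 genes. Each comparison was a limma 3.58.1 fit (R 4.3.3) of its 6 libraries on log2 of (signal + 1), with a variance trend and Benjamini-Hochberg adjustment over all genes with at least 15.5 signal (the 40th percentile of non-zero values) in 3 or more libraries. The code was tested on simulated data. Ratios, correlations and exact tests used Python 3.11.15 and scipy 1.17.1. Each library's signal sets its precision, and no interval was attached because counts are unknown. Replicate numbers were taken from the labels. Between macrophages and endothelial cells, deviations of same-numbered libraries correlated at 0.23, 0.41 and 0.36, and 6 of 6 libraries correlated best with their own number. Replicate 1 had the highest GC trend in both of these groups, and the part of that trend in these correlations was not tested. The labels do not state that same-numbered libraries are paired. The fits whose values are given treated them as unpaired, and the replicate number entered as a block only in an alternative. The alternatives were other scalings, filters, pseudocounts, variance models and markers, a replicate block, left-out libraries and a removed GC trend, the last chosen after seeing the data, as was leaving out both high-GC libraries. The members and gene lists were chosen with earlier results of these data known. Named genes are all 10 members, the 3 genes nearest to each, and per list and comparison up to 4 called genes with the largest difference and up to 2 others with the highest signal. Of these others, and of the called genes in the comparisons of sorted cells, which to name was decided after values were seen. The gene lists are described by counts and medians, without a test.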

Additional observations from a re-analysis of the deposited data

How the results depend on the processing

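With 3 libraries a group and unknown depth, small differences of low genes cannot be resolved. Over 570 results of single factors under alternatives, 509 kept their direction and side of the threshold, 47 lost a call, 10 gained one and 4 changed sign. The sign changes were those of Fli1 between sorted populations (0.065 without endothelial replicate 1 and 0.083 without macrophage replicate 3, within a range of -0.097 to 0.083 over left-out libraries) and of Erg between endothelial cells and Dox islets (0.27 without Dox replicate 2 and 0.10 without Dox replicate 3, and -1.05 without Dox replicate 1), and the cause was not tested. Of 1112 such results for the other genes named from the lists, 937 kept their call, 161 lost it, 14 gained one and 0 changed sign. The count of 5 factors called in islets was 1 with no filter (more genes tested), 3 with quantile normalization, 2 with median ratio rescaling, 1 with no variance trend, 2 without both high-GC libraries and 0 to 3 when 1 library was left out, and it was 5 with a pseudocount of 10, 6 with one fit of all groups and 5 with the GC trend removed. Islet calls were gained by Erg in 3 alternatives and by Fli1, Klf4 and Sox18 in 1 each. The cause was not tested. Counts in the other 3 comparisons stayed within 1.5 times. The number of factors whose ratio to endothelial markers did not overlap between islet groups, 0, was 4 with Cdh5 alone, 2 with Pecam1 alone, 6 without both high-GC libraries and 0 to 5 when 1 library was left out. These counts join both directions, and no share of all genes is given beside them. Over all genes, 829 were called in islets, against 97 with no filter, 301 with no variance trend, 1606 with one fit of all groups, 1749 with the GC trend removed, 5 without Dox replicate 2, 88 without Dox replicate 3, 456 without No Dox replicate 1 and 301 without both high-GC libraries. Between endothelial cells and Dox islets 4706 became 7156, 2994 and 2301 without Dox replicate 1, 2 and 3. The share of calls that were higher was 75.4% in islets, 60.3% with quantile normalization and 65.4% with median ratio rescaling. Quantile normalization moved that share from 34.7 to 56.8% in endothelial cells against Dox islets and from 40.3 to 51.4% in macrophages against Dox islets. It moved the median of all genes from 0.11 to -0.029, from 0.0038 to 0.28 and from -0.20 to 0.10 in these 3 comparisons. With the replicate number as a block, 4 factors were called in islets, 9 between sorted populations, 9 between endothelial cells and Dox islets and 8 between macrophages and Dox islets. In islets, same-numbered libraries correlated at -0.25, -0.54 and 0.16 and 0 of 6 libraries correlated best with their own number, in endothelial cells against Dox islets at 0.29, 0.00092 and 0.068 (2 of 6) and in macrophages against Dox islets at 0.21, 0.04 and 0.031 (4 of 6). These share only a number. Between the sorted populations the block changed no call of a factor.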
